A study of Homo sapiens with 12 samples.

Results

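Genes for secreted inflammatory signals were followed in UM-UC-3 cells, a human line established from a bladder cancer: the chemokines CCL2, CXCL8 (named IL8 in the deposited table), CXCL1, CXCL2, CXCL3 and CXCL5, and the cytokines IL6, IL1A, IL1B and LIF. They were found by symbol in the deposited array table, which held 1 probe for each, so they are 10 of 24959 named genes and 10 of 46713 probes. The 4 groups received, at 50 nM for 72 h, the precursor of miR-101 or a control precursor, and EZH2 siRNA or a control siRNA. Each group had 3 single-colour Illumina bead arrays. No group was left untransfected, all arrays came from 1 cell line, and the labels describe triplicate transfections without naming separate days. The p-values therefore set each difference against the spread among these arrays. That spread may be in part technical, and whether it covers separate cultures is not known.

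CCL2 draws monocytes through the receptor CCR2, whereas the CXC chemokines listed here draw neutrophils through CXCR2 and, for CXCL8, also CXCR1. IL1A and IL1B signal through IL1R1 and MYD88 to the transcription factor NF-kB, which switches on the genes of these chemokines, of IL6 and of its own inhibitors. IL6 and LIF signal through receptors that share the subunit IL6ST, known as gp130, and the short-lived mRNAs of many of these genes are cleared by AU-rich element binding proteins such as ZFP36. EZH2 is the histone methyltransferase of Polycomb repressive complex 2, and miR-101 is a microRNA named in the study's title as its repressor.

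The mature strand hsa-miR-101-3p from RefSeq (GRCh38.p14, chr9:4850345-4850365, + strand) is shown because it carries the seed by which a microRNA pairs with its targets. Capitals mark that seed, bases 2 to 8.
hsa-miR-101-3p: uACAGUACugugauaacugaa

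Promoter windows from RefSeq (GRCh38.p14, 250 bases before to 50 bases after the start site) were at hand for 8 of the 10 members, CCL2 and LIF being the others. The stretches from 100 to 20 bases before the start site are shown for the CXC chemokines and IL6, because they hold the NF-kB-like letters GGNNTTTCC, in capitals, that set CXCL1, CXCL2 and CXCL3 side by side with CXCL8. All are written 5′ to 3′ on the gene's strand.
CXCL8 (chr4:73740469-73740549, +): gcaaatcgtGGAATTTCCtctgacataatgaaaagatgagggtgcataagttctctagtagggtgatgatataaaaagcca
CXCL1 (chr4:73869293-73869373, +): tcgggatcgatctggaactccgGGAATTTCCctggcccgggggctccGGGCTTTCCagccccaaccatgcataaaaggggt
CXCL2 (chr4:74099215-74099295, -): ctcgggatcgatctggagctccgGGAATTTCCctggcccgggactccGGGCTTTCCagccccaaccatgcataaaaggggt
CXCL3 (chr4:74038709-74038789, -): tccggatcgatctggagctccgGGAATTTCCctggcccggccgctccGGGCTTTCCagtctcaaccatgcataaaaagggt
CXCL5 (chr4:73998697-73998777, -): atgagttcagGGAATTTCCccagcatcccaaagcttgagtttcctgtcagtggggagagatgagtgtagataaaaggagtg
IL6 (chr7:22727100-22727180, +): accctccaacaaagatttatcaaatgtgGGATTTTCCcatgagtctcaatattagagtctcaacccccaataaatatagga

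The NF-kB-like letters, searched on both strands, stood once in CXCL8, CXCL5 and IL6 and at 2 places in CXCL1, CXCL2 and CXCL3. They were absent from the windows of IL1A and IL1B. At least 1 match was present in 6.26% of 35116 promoter windows of the same 300 bases, and 2 or more in 0.30%. The stretch of CXCL1 was 95.1% identical to that of CXCL2 and 91.4% to that of CXCL3, against 44.8% to that of CXCL8. The AP-1-like letters TGANTCA were found in CXCL8, 137 bases before the start, and in IL1A, and in 7.71% of all windows. The TATA box letters TATAAA were found in CXCL8, 31 bases before the start, and in 1 of the windows of IL1A, and in 11.53% of all windows. These are matches of letters, and no binding was measured.

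EZH2 RNA, the check of both treatments, was at 53.8% of the control precursor level with miR-101 (adjusted p = 0.000300) and at 43.0% of the control siRNA level with EZH2 siRNA (adjusted p = 0.000432, limma). The share of probes detected ran from 33.1% to 35.1%, and the median raw signal ran from 80.4 to 100.1 intensity units. The mean raw signal was less even, at 486.3, 304.0 and 377.2 units on miR-101 replicates 1, 2 and 3. With the control precursor it ran from 451.5 to 480.9 units. Normalization evens out such differences, so normalized changes can depart from ratios of raw means. The 2 kinds of transfection lay on different chips: chip and kind of control cannot be told apart, and within a chip the position of an array cannot be told apart from the treatment. Of 4 mesenchymal markers VIM (mean raw signals of 21035 to 25880), CDH2 (2630 to 3771) and SPARC (405 to 562) were detected on 12 of 12 arrays and FN1 on none. KRT18 was bright (1748 to 2627), and KRT8 and UPK1B were dim but detected on 12 of 12 arrays. EPCAM, KRT5, KRT19, KRT20, UPK2 and UPK3A were detected on no array, UPK1A on 1, CDH1 on 2 and KRT7 on 5, of 12 epithelial and urothelial markers in all. Among the leukocyte markers reported, CD68 was bright, PTPRC and FCGR3A were detected on 5 and 6 arrays at mean raw signals of up to 105.2, and CD14, ITGAM, CSF1R, LYZ, CD3E and MS4A1 on none. Of 4 endothelial markers, VWF and CDH5 were detected on none, KDR on 1 and PECAM1 on 8 arrays at mean raw signals of up to 106.6. An array of a whole culture cannot tell fewer cells with a transcript from less transcript per cell.

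Of the 10 members 6 were detected on 12 of 12 arrays, at a detection p under 0.05: CXCL8, CXCL1, CCL2, CXCL2, LIF and CXCL3. Only these passed the filter of detection on at least 3 arrays and were tested. CXCL5, IL6 and IL1A were detected on 0 of 12 arrays and IL1B on 2. A probe's brightness depends on its own sequence, so levels are compared between groups and never between genes.

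**Figure D1:**
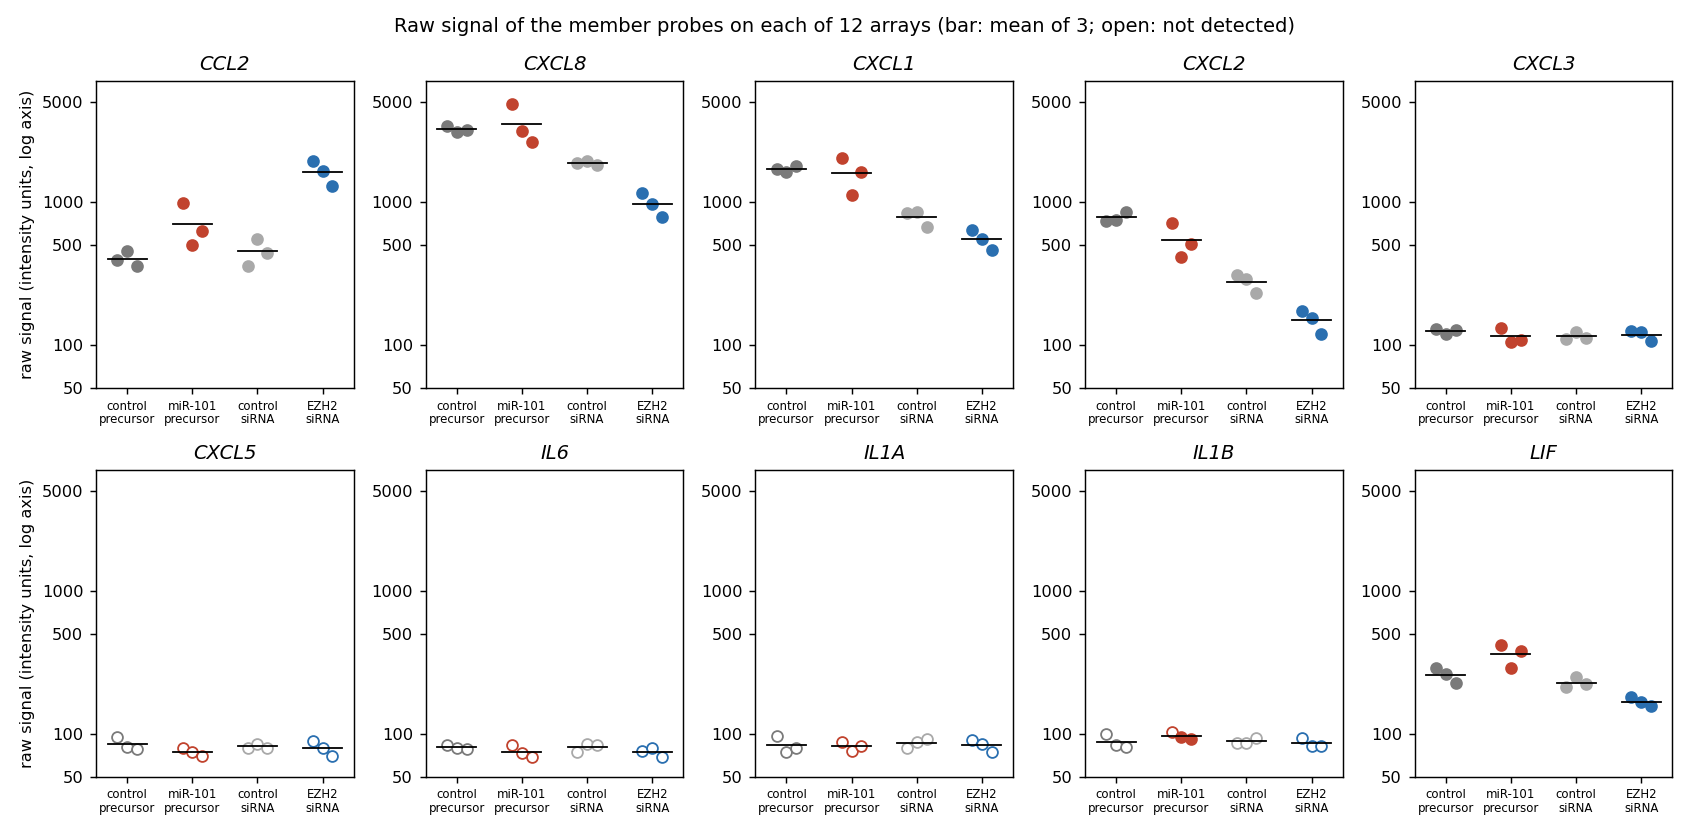
Raw probe signal (intensity units, log axis) of the 10 members on each of the 12 arrays, by transfection group; bars are means of 3 arrays and open circles are arrays on which the probe was not detected. CCL2 is highest with EZH2 siRNA (1296.2 to 1918.4 units), and CXCL8, CXCL1 and CXCL2 are lowest there. CXCL5, IL6 and IL1A are not detected on any array.

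CCL2, probe ILMN_25185, had raw signals of 354.3, 392.3 and 450.6 units with the control precursor and of 357.5, 440.1 and 553.6 units with the control siRNA. With miR-101 the signals were 498.8, 626.3 and 987.6 units, and with EZH2 siRNA 1296.2, 1636.3 and 1918.4 units. The EZH2 siRNA arrays lay above all others, the miR-101 arrays overlapped the control siRNA arrays only in the raw signal, and the controls overlapped each other. After normalization CCL2 was at 7.97 ± 0.14 on the log2 scale (SD, n = 3) with the control precursor, 9.26 ± 0.12 with miR-101, 8.23 ± 0.24 with the control siRNA and 10.38 ± 0.12 with EZH2 siRNA. The order was EZH2 siRNA, miR-101, control siRNA and control precursor. The last 2 did not pass the test of their difference (0.27, 95% interval -0.01 to 0.54, adjusted p = 0.143), although they did without control siRNA replicate 1 (0.40, adjusted p = 0.0227). EZH2 siRNA and miR-101 were not tested against each other directly, and their arrays did not overlap.

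CCL2 rose with both treatments against either control. EZH2 siRNA raised it 4.43-fold over the control siRNA (log2 change 2.15, SE 0.123, adjusted p = 2.04e-05), rank 1 of the 13526 genes tested, and 5.33-fold over the control precursor (2.41, adjusted p = 1.61e-06), rank 2. The rise with miR-101 was 2.46-fold over the control precursor (1.30, adjusted p = 2.47e-05), rank 201, and 2.04-fold over the control siRNA (1.03, adjusted p = 0.000123). The ranks given here and below were computed with the main normalization only. The comparisons share control arrays, so they are not independent of each other. The response to miR-101 minus that to EZH2 siRNA was -0.85 on the log2 scale (SE 0.175, adjusted p = 0.00444). That difference was not past the threshold when the arrays were scaled by their medians (-0.79, adjusted p = 0.104).

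CXCL8 (probe ILMN_2247), also known as interleukin 8, attracts and activates neutrophils. Its raw signals were 3095.7, 3168.6 and 3390.5 units with the control precursor and 1810.9, 1883.8 and 1924.3 units with the control siRNA. They were 2631.4, 3129.7 and 4822.5 units with miR-101 and 788.1, 963.3 and 1144.8 units with EZH2 siRNA. EZH2 siRNA arrays lay below all others, control siRNA arrays below both precursor groups, and the miR-101 arrays spanned the control precursor arrays in the raw signal. The ratio of raw means, miR-101 to control precursor, was 1.10. On the normalized log2 scale the group means were 11.96 ± 0.35 with miR-101, 11.45 ± 0.06 with the control precursor, 10.76 ± 0.12 with the control siRNA and 9.52 ± 0.18 with EZH2 siRNA.

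CXCL8 fell to 42.4% of the control siRNA level with EZH2 siRNA (log2 change -1.24, SE 0.157, adjusted p = 0.00128), rank 24 from the largest fall, and to 26.2% of the control precursor level (-1.93, adjusted p = 2.70e-05). With miR-101 it was 2.30-fold above the control siRNA (1.20, adjusted p = 0.000215) and 1.42-fold above the control precursor (0.51, SE 0.157, adjusted p = 0.0250). The last of these was lost with median scaling (0.38, adjusted p = 0.169), in a fit of only the compared arrays (adjusted p = 0.0688), and without any one of the control precursor arrays or of miR-101 replicates 1 and 2 (adjusted p from 0.0507 to 0.0774). The controls differed too, the control siRNA being at 61.8% of the control precursor (-0.69, adjusted p = 0.00944; with median scaling -0.58, adjusted p = 0.0747). The responses to miR-101 and EZH2 siRNA, each against its own control, differed by 1.75 (SE 0.222, adjusted p = 0.000294).

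CXCL1 (probe ILMN_17166), a neutrophil chemokine of the same gene cluster, had raw signals of 1610.2, 1697.7 and 1779.9 units with the control precursor. The signals were 1111.1, 1625.8 and 2037.4 units with miR-101, 662.9, 833.8 and 848.1 units with the control siRNA, and 462.6, 552.0 and 637.4 units with EZH2 siRNA. The precursor groups overlapped each other and lay above both siRNA groups, and the EZH2 siRNA arrays lay below the control siRNA arrays. The ratio of raw means, miR-101 to control precursor, was 0.94. CXCL1 fell to 58.8% of the control siRNA with EZH2 siRNA (-0.77, SE 0.125, adjusted p = 0.00457) and to 25.5% of the control precursor (-1.97, adjusted p = 5.65e-06). With miR-101 it was 2.72-fold above the control siRNA (1.45, adjusted p = 1.49e-05), while against its own control precursor the value was 0.24 (95% interval -0.04 to 0.52, adjusted p = 0.154). Array weights put that value at 0.27 with an adjusted p of 0.0481. The control siRNA stood at 43.3% of the control precursor (-1.21, adjusted p = 0.000130), and the responses to the treatments differed by 1.01 (SE 0.176, adjusted p = 0.00190).

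CXCL2 (probe ILMN_29078), a close relative of CXCL1, showed a stepwise order of groups. Its raw signals were 732.1, 752.3 and 852.1 units with the control precursor and 413.3, 506.6 and 710.6 units with miR-101. With the control siRNA they were 228.8, 290.3 and 305.7 units, and with EZH2 siRNA 119.0, 154.2 and 171.6 units. No group overlapped another, in the order control precursor, miR-101, control siRNA and EZH2 siRNA.

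CXCL2 was the tested member with the largest difference between the controls: the control siRNA was at 31.3% of the control precursor (-1.67, SE 0.131, adjusted p = 2.40e-05), rank 20 from the largest fall among all genes. EZH2 siRNA put it at 69.7% of the control siRNA (-0.52, adjusted p = 0.0347) and at 21.9% of the control precursor (-2.19, adjusted p = 3.67e-06), rank 5 from the largest fall. With miR-101 it was at 75.7% of the control precursor (-0.40, adjusted p = 0.0313) and 2.42-fold above the control siRNA (1.27, adjusted p = 4.63e-05), so its direction with miR-101 depended on the control. The fall with EZH2 siRNA against its own control passed the threshold in 13 of 23 alternatives. The losses included median scaling (adjusted p = 0.160), an offset of 50, no detection filter, and leaving out any one of the EZH2 siRNA arrays, control siRNA replicates 1 and 2 or miR-101 replicate 1 (adjusted p from 0.0528 to 0.104). The fall with miR-101 against its own control passed in 15 of 23. The losses included median scaling (adjusted p = 0.151), no detection filter, a fit of only the compared arrays, and leaving out control precursor replicate 3 (-0.24) or any one of the miR-101 arrays (adjusted p from 0.0627 to 0.0758).

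LIF (probe ILMN_14586), the leukemia inhibitory factor of the IL6 family, had raw signals of 227.3, 259.7 and 287.8 units with the control precursor and of 285.1, 378.0 and 418.3 units with miR-101. They were 210.9, 221.7 and 249.6 units with the control siRNA and 154.6, 165.4 and 179.6 units with EZH2 siRNA. In the raw signal the EZH2 siRNA arrays were the lowest, the controls overlapped, and 1 miR-101 array fell within the range of the control precursor. After normalization the control siRNA arrays lay below the control precursor arrays. LIF rose 1.53-fold with miR-101 over the control precursor (0.61, SE 0.0654, adjusted p = 5.24e-05) and 1.63-fold over the control siRNA (0.71, adjusted p = 2.31e-05). With EZH2 siRNA it was at 84.8% of the control siRNA (-0.24, adjusted p = 0.0491) and at 79.4% of the control precursor (-0.33, adjusted p = 0.00440). The first of these was past the threshold in 9 of 23 alternatives. The losses included leaving out any one of the control precursor, control siRNA or EZH2 siRNA arrays or miR-101 replicate 2 (adjusted p from 0.0592 to 0.142). The controls gave -0.10 (95% interval -0.24 to 0.05, adjusted p = 0.321), and the responses to the treatments differed by 0.85 (SE 0.0925, adjusted p = 0.000113).

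CXCL3 (probe ILMN_26666), the remaining relative of CXCL1 in the cluster, was detected on every array but stayed dim. Its raw signals ran from 119.9 to 129.5 units with the control precursor, 104.8 to 131.0 with miR-101, 109.5 to 123.2 with the control siRNA and 105.7 to 124.3 with EZH2 siRNA. The groups overlapped in the raw signal, and no comparison passed the threshold, with log2 changes from -0.03 to 0.02 and adjusted p-values from 0.244 to 0.782. The 95% intervals of the treatments against their own controls ran from -0.06 to 0.03 and from -0.03 to 0.06. At signals this close to the background the normalization narrows changes, and these intervals do not bound the change of the transcript.

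The undetected members gave no fold. CXCL5, a further neutrophil chemokine, had raw signals from 69.3 to 94.5 units and detection p-values from 0.330 to 0.808. IL6 ran from 68.5 to 84.3 units (detection p from 0.455 to 0.853) and IL1A from 73.9 to 95.6 units (0.176 to 0.737). These probes were not well above background in any group. IL1B was detected on miR-101 replicates 2 and 3 and on no other array, with raw signals of 92.2, 94.8 and 102.3 units with miR-101 and from 81.1 to 98.7 units elsewhere. Without the detection filter its log2 change with miR-101 against the control precursor was 0.05 (adjusted p = 0.00491). The raw signals of those groups overlapped, and the signal sat at the edge of detection.

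**Figure D2:**
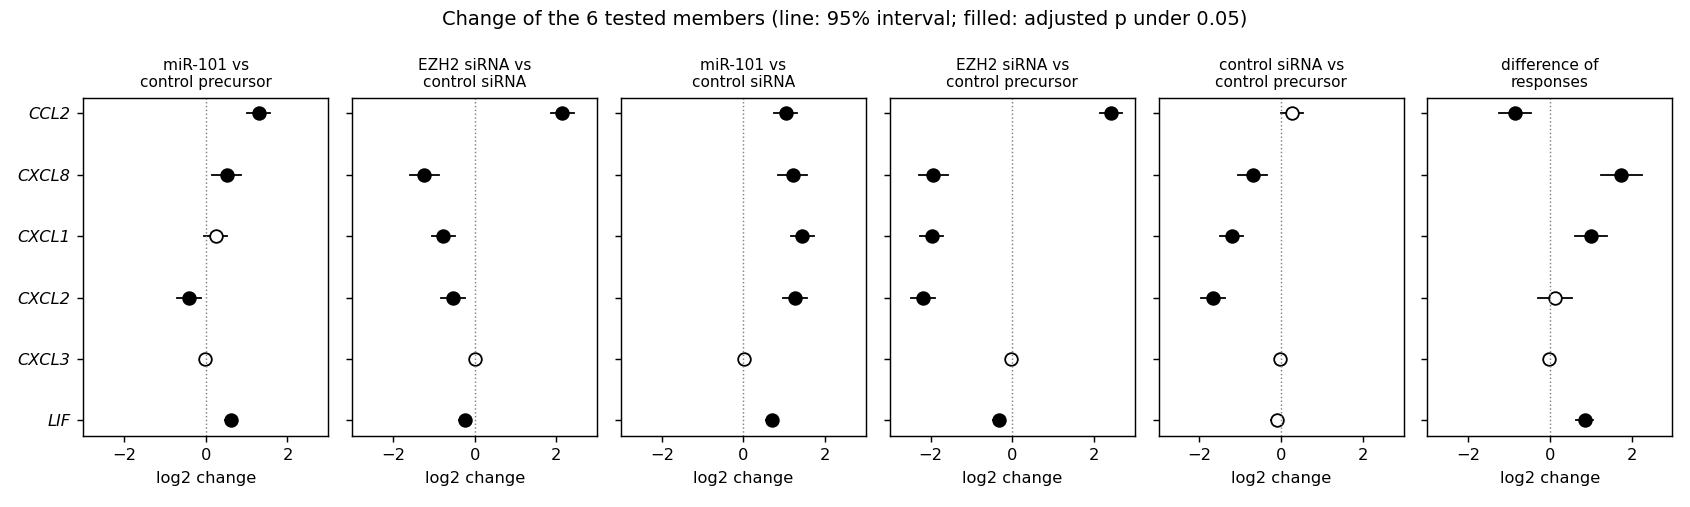
Log2 change of the 6 tested members in each comparison (x axis) with 95% intervals; filled circles have an adjusted p under 0.05 (limma, Benjamini-Hochberg over 13526 genes). CCL2 lies to the right in the 4 comparisons of a treatment with a control, CXCL8, CXCL1 and CXCL2 lie left of 0 with EZH2 siRNA, and between the controls the same 3 CXC chemokines lie left of 0.

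Counted over the tested members, miR-101 against the control precursor called 4 of 6 (3 higher, 1 lower), where 44.9% of all genes were called, 23.6% higher and 21.3% lower. EZH2 siRNA against the control siRNA called 5 of 6 (1 higher, 4 lower), where 10.5% of all genes were called, 5.85% higher and 4.64% lower. That balance over all genes turned with median scaling, from 791 higher and 628 lower to 119 higher and 268 lower, while the called members kept their directions. Against the other control, miR-101 called 5 of 6, all higher, where 43.1% of all genes were called (22.9% higher, 20.2% lower; with median scaling 1655 genes higher and 2685 lower). EZH2 siRNA against the control precursor called 5 of 6, with 1 higher and 4 lower, where 28.6% were called (15.1% higher, 13.4% lower; with median scaling 1335 genes higher and 661 lower). The controls differed in 3 of 6 members, all lower with the control siRNA, where 28.3% of all genes were called (14.1% higher, 14.2% lower; with median scaling 1675 genes higher and 540 lower). The responses differed in 4 of 6, with 3 above and 1 below 0, where 33.9% were called (17.4% above, 16.4% below). The median log2 change of the 6 was 0.37 with miR-101 and -0.38 with EZH2 siRNA, each against its own control, beside -0.00 and 0.00 for all genes. The 5 called with EZH2 siRNA came down to 3 when the offset was 50 or the detection filter was left out, and the 4 called with miR-101 to 2 with median scaling.

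How the background was handled changed the size of the members' values. The neqc method inferred from the detection p-values a background spread of 103 to 192 intensity units per array, against 1.72 to 2.32 units when the background was fitted to all probes. It therefore mapped raw signals of 100 and 200 units to 83.5 to 134 and 121 to 164 units, and so narrowed changes in that range. For CXCL2 with EZH2 siRNA the change of -0.52 became -0.93 with no background correction and -1.21 (adjusted p = 6.89e-06) with the background fitted to all probes. LIF went from -0.24 to -0.46 and to -0.60 (adjusted p = 0.000714) in the same comparison. The difference of the CXCL2 responses, 0.12 (adjusted p = 0.678), became 0.62 (adjusted p = 0.00705) and 0.88 (adjusted p = 0.00120). The authors' own normalized table gave -0.93 for CXCL2, -0.46 for LIF and 0.62 for that difference. CCL2 with EZH2 siRNA came down from 2.15 to between 1.74 and 1.85 in those settings, and CXCL3 had no call in any of them.

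**Figure D3:**
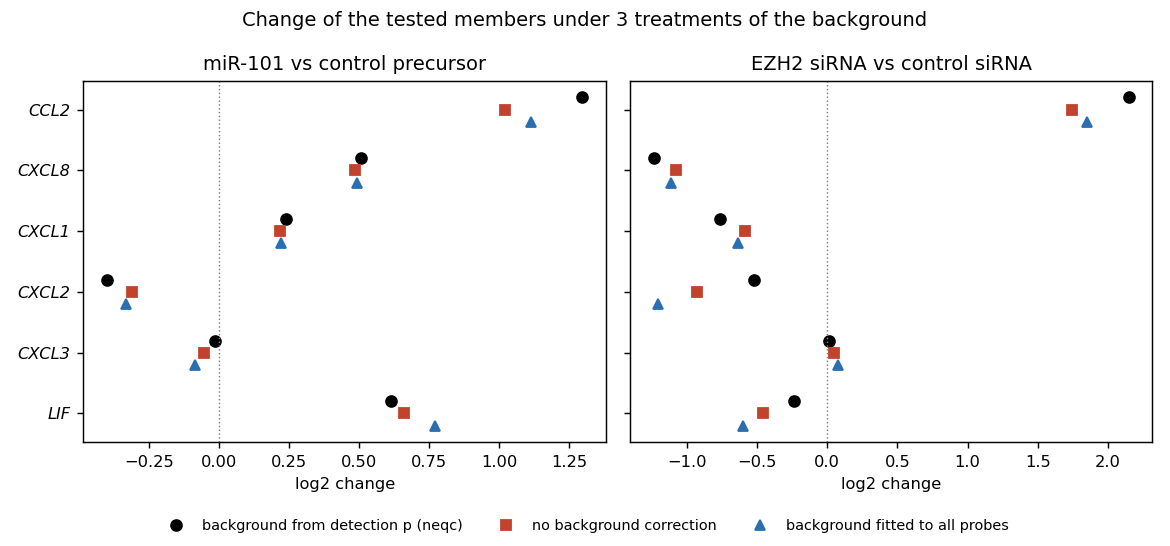
Log2 change of the 6 tested members (x axis, scaled separately in each panel) against their own controls, for 3 settings: a background derived from detection p-values, no correction, and a background fitted to all probes. CXCL2 and LIF move away from 0 with EZH2 siRNA, from -0.52 to -1.21 and from -0.24 to -0.60, and no called member changes sign.

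Among themselves, the members fell into unlike patterns over the 4 groups. As a measure of likeness, the root mean square difference between group means, each centred on the gene's own mean, was 0.20 between CXCL8 and CXCL1, 0.24 between CXCL1 and CXCL2 and 0.42 between CXCL8 and CXCL2 (log2 units over 4 group means). CCL2 was 1.63 to 1.67 from those 3 and 1.07 from LIF, which in turn was 0.63 to 0.71 from the 3 CXC chemokines. Among all non-member genes the nearest to CXCL2 were BIRC3 (0.11), an inhibitor of apoptosis induced by NF-kB, and CCN1 (0.11), a matricellular protein, followed by the ubiquitin ligase NEDD4L (0.25). The nearest to CXCL1 were BIRC3 (0.22), the stress-induced phosphatase regulator PPP1R15A (0.26) and NEDD4L (0.26). CXCL8 was nearest to the tyrosine phosphatase PTPN1 (0.23), ZMAT2 (0.25) and SAT1 (0.26), a polyamine acetyltransferase. CCL2 was nearest to the carbonic anhydrase CA12 (0.25), the actin-binding protein TRIOBP (0.35) and the retinol dehydrogenase DHRS3 (0.42). LIF was nearest to UBAP1 (0.01), NIFK (0.03) and ZNF91 (0.04), at distances small beside those of the others because its own range was small (root mean square 0.35, against 0.95 for CCL2).

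**Figure D4:**
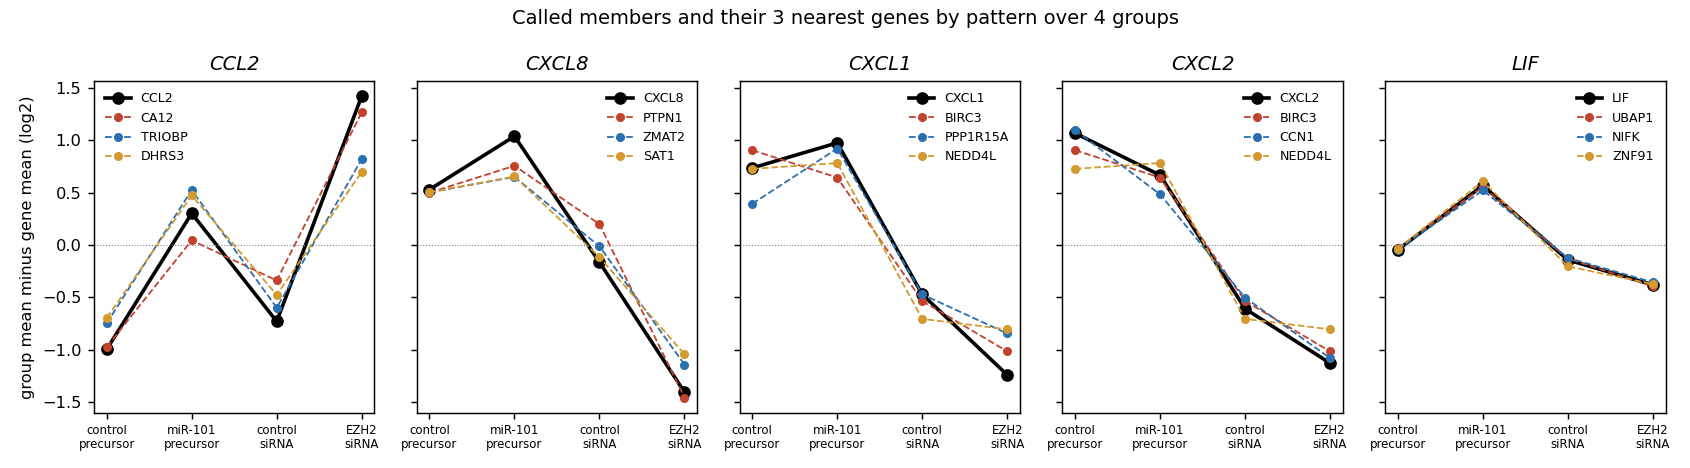
Group means minus the gene's own mean (log2, y axis) over the 4 groups for the 5 members called in a comparison with their own control (black) and their 3 nearest non-member genes (coloured). CCL2 and CA12 peak with EZH2 siRNA, whereas CXCL8, CXCL1 and CXCL2 and their neighbours are lowest there and higher in both precursor groups.

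The CXC members lie in 1 cluster on chromosome 4, whose 9 genes run in the RefSeq order CXCL8, CXCL6, PF4V1, CXCL1, PF4, PPBP, CXCL5, CXCL3 and CXCL2. This neighbourhood was looked at after the values were seen. Of the 9 genes 6 were tested. CXCL6, a neutrophil chemokine next to CXCL8, was at -0.13 with EZH2 siRNA against the control siRNA (adjusted p = 0.0158) and at -0.03 with miR-101 against the control precursor (adjusted p = 0.364). It was also lower with EZH2 siRNA against the control precursor (-0.09, adjusted p = 0.0382) and with miR-101 against the control siRNA (-0.08, adjusted p = 0.0470). Its raw means were 123.1 units with EZH2 siRNA and 157.8 units with the control siRNA, a range where the normalization narrows changes. PPBP, a platelet chemokine, was not past the threshold in any comparison, and PF4 and PF4V1 did not pass the detection filter. Beyond CXCL2, MTHFD2L, a mitochondrial folate enzyme, was at 0.39 (adjusted p = 2.57e-06) and EREG, a growth factor of the EGF family, at 1.50 (adjusted p = 2.24e-05) with miR-101 against the control precursor, and neither was past the threshold with EZH2 siRNA against its control (-0.06 and -0.19).

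Of 30 other chemokines 11 were tested. Counts of this and the following lists are to be read beside the share of all genes called. That share was 44.9% with miR-101 and 10.5% with EZH2 siRNA, each against its own control. With miR-101 against the control precursor CXCL16 was higher (0.13, adjusted p = 0.000443) and CCL20, which attracts cells bearing CCR6, was lower (-1.65, adjusted p = 4.78e-05). The raw CCL20 signals were 500.5, 505.9 and 666.6 units with the control precursor and 89.7 to 156.9 units on the other 9 arrays, so that group alone was high. With EZH2 siRNA against the control siRNA CXCL6 was the 1 called. Against the control precursor CCL20 was also lower with EZH2 siRNA (-1.72, adjusted p = 0.000101) and with the control siRNA (-1.69, adjusted p = 0.000127).

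Of 21 other cytokines 10 were tested, and 4 were higher and 1 lower with miR-101 against the control precursor. Of all genes 23.6% were higher and 21.3% lower there. IL11, of the same gp130 family as LIF, had raw signals of 160.1, 190.1 and 237.5 units with the control precursor and 628.0, 640.5 and 995.1 units with miR-101, a rise of 2.27 (adjusted p = 1.27e-07). It also rose with EZH2 siRNA over the control siRNA (0.33, adjusted p = 0.0459), the only one of the list called there, and its responses differed by 1.94 (adjusted p = 5.15e-06). IL12A (0.42, adjusted p = 3.72e-06) and IL18 (0.19, adjusted p = 0.0260) were higher with miR-101. The rise of IL18 was present only after normalization. Its raw means were 19577.5 units with miR-101 and 21005.6 units with the control precursor, and the raw signals overlapped. CSF2, a growth factor for granulocytes and macrophages, was at 341.7, 344.1 and 437.7 units with the control precursor and at 86.7 to 109.0 units elsewhere, and fell with miR-101 (-1.04, adjusted p = 0.000144). Its control precursor level was at least 2.10-fold above that of the control siRNA, where it was detected on no array (adjusted p = 0.000292). TNF was detected on no array.

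Of 14 receptors 7 were tested. CCR2, CXCR1 and CXCR2, the receptors of CCL2 and the CXC chemokines, were detected on 0 of 12 arrays, as were CCR4, ACKR1 and ACKR2. IL6ST was higher with miR-101 against the control precursor (0.22, adjusted p = 0.00131), as was the LIF receptor LIFR (0.13, adjusted p = 0.0202). With miR-101 against the control siRNA IL6ST was again higher (0.14, adjusted p = 0.0161), while LIFR gave -0.09 (adjusted p = 0.0813). No receptor was past the threshold with EZH2 siRNA against the control siRNA (0 of 7 by limma, 1 at an unadjusted p under 0.05). The 2 probes of IL1RAP, the co-receptor of IL1R1, disagreed with miR-101 against the control precursor: the tested one gave 0.04 (adjusted p = 0.221) and the other, dimmer on average, 0.48 (adjusted p = 3.28e-06 in the fit of all passing probes). Against the control siRNA both were higher with miR-101 (0.15, adjusted p = 0.000438, and 0.45, adjusted p = 6.44e-06 in the same fits).

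Within gp130 signalling, where 9 of 9 genes were tested, the transcription factor STAT3 was higher with miR-101 (0.68, adjusted p = 0.000236) and with EZH2 siRNA (0.39, adjusted p = 0.0253), each against its own control. The kinase JAK1 was lower with EZH2 siRNA (-0.85, adjusted p = 0.00288). With miR-101 against the control precursor 2 genes of the list were higher and 3 lower, where 23.6% of all genes were higher and 21.3% lower. Among the lower were the phosphatase PTPN11 (-0.48, adjusted p = 0.00272) and the feedback inhibitor SOCS3 (-0.14, adjusted p = 0.0240). Neither was past the threshold with miR-101 against the control siRNA (-0.10 and -0.05, adjusted p of 0.449 and 0.459). STAT3 was past it there (0.70, adjusted p = 0.000208). Of the 9 genes of IL1 signalling, miR-101 against the control precursor gave 5 higher and 2 lower, beside the same 23.6% and 21.3% of all genes. Higher were the adaptors MYD88 (0.18, adjusted p = 0.000133) and TAB2 (0.59, adjusted p = 0.000269) and the kinase IRAK2 (0.78, adjusted p = 0.00238), and lower were IRAK1 (-0.77, adjusted p = 0.000192) and TOLLIP (-0.31, adjusted p = 0.000377), an inhibitor of the pathway. With miR-101 against the control siRNA MYD88, TAB2, IRAK2 and IRAK1 kept their direction past the threshold. TOLLIP was not past it there (-0.11, adjusted p = 0.0793). EZH2 siRNA against the control siRNA gave 1 call, the fall of TAB2 (-0.63, adjusted p = 0.00129). Of genes that mature or restrain IL1, 7 of 10 were tested, and miR-101 against the control precursor gave 1 higher and 2 lower. GSDMD, the pore protein gasdermin D, was higher (0.64, adjusted p = 0.0109), and was at 0.56 with EZH2 siRNA against the control siRNA (adjusted p = 0.0613). NLRP3, an inflammasome sensor, was lower with miR-101 (-0.51, adjusted p = 1.05e-05) and with EZH2 siRNA (-0.34, adjusted p = 0.00108), while the protease CAPN2 was lower with miR-101 (-1.07, adjusted p = 4.57e-05). CASP1 and PYCARD were detected on no array.

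Of the NF-kB subunits and feedback genes 20 of 20 were tested. The control siRNA against the control precursor gave 1 higher and 7 lower, where 14.1% of all genes were higher and 14.2% lower. EZH2 siRNA against the control siRNA gave 1 higher and 1 lower, close to the 5.85% and 4.64% of all genes. NFKBIA, the inhibitor that holds NF-kB in the cytoplasm, had raw signals of 11128.8, 12322.9 and 12663.2 units with the control precursor and 1840.2 to 4172.3 units on the other 9 arrays. It was lower with the control siRNA than with the control precursor by -2.38 (adjusted p = 1.31e-07), with NFKBIZ at -1.69 (adjusted p = 3.52e-07), TNFAIP3 at -1.13 (adjusted p = 1.19e-06) and BIRC3 at -1.44 (adjusted p = 7.50e-05). A second NFKBIZ probe, dimmer on average, gave -0.01 both between the controls (adjusted p = 0.784) and with miR-101 against the control precursor (adjusted p = 0.756). NFKBIA, NFKBIZ by its tested probe, and TNFAIP3 also fell with miR-101 against the control precursor (-1.64, -1.15 and -0.52, adjusted p of 1.78e-07, 5.05e-07 and 3.15e-05). The list gave 4 higher and 6 lower there, beside 23.6% and 21.3% of all genes. Against the control siRNA the same genes rose with miR-101 (0.74, 0.55 and 0.61, adjusted p of 2.21e-05, 5.96e-05 and 1.40e-05). Their direction with miR-101 therefore depended on the control. With EZH2 siRNA against the control siRNA, NFKBIA was higher (0.36, adjusted p = 0.0101) and the subunit RELB lower (-0.70, adjusted p = 0.0137). Against the control precursor both were lower with EZH2 siRNA (-2.02 and -1.07, adjusted p of 1.97e-07 and 0.000497). Over the list EZH2 siRNA against the control precursor gave 9 calls, all lower, where 15.1% of all genes were higher and 13.4% lower. Comparing miR-101 with the control siRNA gave 11 higher and 2 lower, where 22.9% of all genes were higher and 20.2% lower.

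Of the AU-rich mRNA regulators 11 of 12 had a probe and were tested. Of all genes 14.1% were higher and 14.2% lower with the control siRNA than with the control precursor. With miR-101 against the control precursor these shares were 23.6% and 21.3%. The control siRNA against the control precursor gave 1 higher and 6 lower, among them ZFP36 (-0.81, adjusted p = 0.000102), ZFP36L1 (-0.84, adjusted p = 0.000139) and DUSP1 (-0.76, adjusted p = 3.58e-05), a phosphatase of the p38 kinase pathway. With EZH2 siRNA against the control siRNA DUSP1 alone was called (-0.49, adjusted p = 0.00140). With miR-101 against the control precursor 1 was higher and 4 lower, among the latter KHSRP (-1.18, adjusted p = 0.000504) and HNRNPD (-0.60, adjusted p = 0.000320), which bind AU-rich elements and promote mRNA decay. Of 15 other inflammatory targets 8 were tested. With miR-101 against the control precursor 5 were higher, among them IER3 (1.68, adjusted p = 6.13e-07), MMP9 (1.35, adjusted p = 4.57e-10) and SOD2 (0.69, adjusted p = 0.000374), and 1, IRF1 (-1.40, adjusted p = 0.000102), was lower. IRF1 had raw signals of 595.1 to 750.1 units with the control precursor and 177.6 to 483.9 units on the other 9 arrays, and with miR-101 against the control siRNA it gave 0.31 (adjusted p = 0.163). With EZH2 siRNA against the control siRNA IER3 was higher (1.26, adjusted p = 6.32e-05), and MMP9 was lower and detected on no EZH2 siRNA array. Against the control precursor IER3 was lower with EZH2 siRNA (-0.84, adjusted p = 0.000121) and with the control siRNA (-2.10, adjusted p = 7.25e-07), so its direction with EZH2 siRNA depended on the control. ICAM1, VCAM1 and PTGS2 were detected on no array. CD68, a lysosomal protein listed among the leukocyte markers, was higher with miR-101 (0.98, adjusted p = 5.56e-06) and lower with EZH2 siRNA (-0.56, adjusted p = 0.00160), each against its own control, and its part in the chemokine results was not tested.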

How the data were processed

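RNA of UM-UC-3 cells was measured on 12 Illumina bead arrays. Per the file headers, the authors deposited for each probe and array a raw average intensity and a detection p-value. BeadStudio is named in the submitters' processing notes, and the bead summary is not given in the sources used. The authors also deposited an intensity table whose sorted values match a quantile normalization of the raw signals (largest difference 3.33e-06). Groups followed the titles. Raw signals were normalized with neqc (limma 3.58.1, R 4.3.3, offset 16, background from detection p-values), to log2 intensity. The filter kept 17844 probes with a detection p under 0.05 on 3 or more arrays, with 1 probe per gene (13526 genes), the one with the highest mean. A model of 4 groups was fitted with lmFit and eBayes (8 residual degrees of freedom), two-sided, with Benjamini-Hochberg adjustment over all genes and a threshold of 0.05. Probes took current symbols through accessions or symbols in RefSeq where these matched; 18162 of 46713 stayed unnamed. The fit was tested on simulated data. The members and gene lists were chosen with earlier results of these data known. Non-member genes named are the 3 nearest in pattern to each called member, up to 4 genes with the smallest adjusted p per list and comparison, cell type markers, EZH2, and those said to be chosen later. Genes of the lists detected on no array, and further probes of IL1RAP and NFKBIZ, were added after the values were seen. Alternatives covered the background, scaling, offset, filter, probe choice, array weights, samples fitted, replicate number as a block and each array left out. The number of arrays limits the precision. Probe sequences were not used here, so cross-hybridization among CXCL1, CXCL2 and CXCL3 was not tested. One marker of the fixed lists is not reported here.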

Additional observations from a re-analysis of the deposited data

Results flagged for a closer look

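The responses to miR-101 and to EZH2 siRNA, each against its own control, differed by the test of the difference itself in 4 of the 6 tested members. Of all genes 33.9% were called in that test. CXCL2 was called as well with no background correction (0.62, adjusted p = 0.00705) and with the background fitted to all probes (0.88, adjusted p = 0.00120). With median scaling CCL2 was not called (adjusted p = 0.104). CXCL8 differed by 1.75 on the log2 scale (adjusted p = 0.000294), with changes of 0.51 with miR-101 and -1.24 with EZH2 siRNA. CXCL1 differed by 1.01 (adjusted p = 0.00190), with values of 0.24 and -0.77. LIF differed by 0.85 (adjusted p = 0.000113), with values of 0.61 and -0.24. CCL2 differed by -0.85 (adjusted p = 0.00444), both treatments having raised it, by 1.30 and 2.15. The responses were measured on different chips, so the chip cannot be told apart from the kind of transfection.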

How the results depend on the processing

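Each result was recomputed under 23 alternatives (22 for the difference of responses), of which the background fitted to all probes was chosen after the data were seen. No called value changed sign. CCL2 with either treatment against either control, CXCL8 and CXCL1 with EZH2 siRNA against either control, and LIF with miR-101 against either control were past the threshold in 23 of 23. Median scaling called 2 members rather than 4 with miR-101 against the control precursor, as did the fit of only the compared arrays, and it lowered the counts of all genes from 1419 to 387 (EZH2 siRNA against control siRNA), 3865 to 1996 (EZH2 siRNA against control precursor), 3823 to 2215 (controls) and 4579 to 2713 (difference of responses). Array weights raised the first of these to 2689. With EZH2 siRNA against the control siRNA the count of 5 members fell to 3 with an offset of 50 and with no detection filter. Leaving out each array in turn gave 2 to 4 members with miR-101 against the control precursor, 3 to 5 members and 791 to 1627 genes with EZH2 siRNA against the control siRNA. The cause of these shifts was not tested. The labels do not say whether the replicate numbers pair the arrays. Deviations of same-numbered arrays correlated from -0.406 to 0.547 over 18 pairs, and those of differently numbered arrays from -0.531 to 0.536. With 3 arrays per group these ranges cannot decide it. With the replicate number as a block, 3 members were called with EZH2 siRNA against the control siRNA, without CXCL2 (adjusted p = 0.0617) and LIF (0.0583), and 3 with miR-101 against the control precursor, without CXCL2 (0.0551), and the counts of all genes were 1436 and 6045. Signals near the background limit CXCL3, LIF and CXCL2 with EZH2 siRNA.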
